A study of Mus musculus with 18 samples.

Results

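The 10 genes described here encode the junctions of the intercalated disc, the end-to-end contact between neighbouring heart muscle cells. The rule that chose them names their symbols and uses no measured value, though it was written with earlier results of these data known, and all 10 were found among the 24419 symbols of the series' expression table. Gja1, Gja5 and Gjc1 encode the gap junction connexins Cx43, Cx40 and Cx45. Dsp, Pkp2, Jup, Dsg2 and Dsc2 encode the desmosome proteins desmoplakin, plakophilin-2, plakoglobin, desmoglein-2 and desmocollin-2. Cdh2 and Ctnna3 encode N-cadherin and αT-catenin of the adherens junction. The samples were hearts of 18 C57BL/6 mice, 8 weeks old and male by the study's methods, in 6 groups of 3. Of these, 5 groups were taken 10 min, 1 h, 6 h, 24 h and 72 h after the proximal left anterior descending coronary artery was tied off, a model of acute myocardial infarction (AMI) without reperfusion, and the tissue was the infarcted left ventricle. The sixth group, named Control in the labels and sham in the study, gave the reference. No drug treatment or engineered allele is named for these mice, and pentobarbital anaesthesia was common to the protocol. Each sample was 1 mouse, and its RNA came from whole tissue with all its cell types.

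At the intercalated disc, connexins form channels that pass the electrical impulse from cell to cell. Desmosomes tie the intermediate filament desmin of one cell to that of the next, with desmosomal cadherins spanning the gap between the cells and plakophilin, plakoglobin and desmoplakin linking them to the filaments. Adherens junctions tie the actin filaments of the sarcomeres together through N-cadherin and the catenins. Inherited defects in the desmosome genes are a known cause of arrhythmogenic cardiomyopathy, and loss or lateral redistribution of Cx43 is a known feature of injured myocardium.

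Values are FPKM, the fragments per kilobase of transcript scaled to the mapped fragments of each library, so levels of different genes can be set side by side. The FPKM sums of the 18 mice ranged from 542418 to 600467. Read counts were not used here, and the error of a value is the spread within its group of 3. The tissue label was checked against 10 cardiomyocyte markers, whose summed FPKM was 59032 to 62632 in the sham mice, 37277 to 47747 at 24 h and 21966 to 27242 at 72 h. All 10 of these markers were lower after 72 h, 5 after 24 h and 2 after 6 h by the test used throughout. That test was limma on log2(FPKM + 1), each pair of groups on its own 6 mice, two-sided, with p adjusted by Benjamini-Hochberg over every gene tested, and a gene was called at an adjusted p under 0.05. The summed FPKM of 7 leukocyte markers went from between 191 and 216 in sham to between 3480 and 4626 at 72 h, and that of 7 fibroblast markers from between 231 and 260 to between 3661 and 4792, with all 7 of both lists called higher. Of 7 endothelial markers 4 were lower and 0 higher at 72 h, and of 5 smooth muscle markers 1 was lower and 3 higher. At that time 24.2% of all genes tested were lower and 53.1% higher. In such tissue, fewer cells of a type and less RNA per cell cannot be told apart. The first 6 h mouse stood apart by its atrial genes: Myl7, the atrial light chain, was at 18.7 FPKM and Sln at 12.5 there, while Myl7 was at 0.49 or below and Sln at 0.13 or below in each of the other 17 mice. The calls at 6 h are therefore also given without that mouse, a choice that for the partner genes was made after seeing the data.

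In mm10 (GENCODE M21), Gja1 spans chr10:56377330-56402513 on the plus strand, with 5 merged exons. Gja5 spans chr3:96904693-97077416 and Dsp chr13:38151294-38198577, both on the plus strand. On the opposite strand, Gpr89 shares 165 exon bases with Gja5. Whether the counting used strand is not stated, so reads of these bases cannot be assigned to one gene, and Gpr89 had a mean of 2.21 FPKM over the 18 mice. Antisense models share exon bases with Dsp and with Dsg2 and had no row in the table, so the same limit applies to both. RefSeq (GRCm38.p6) promoter windows were matched for 5 of the 10 genes. The 250 bases before the annotated start are shown for the connexin with the highest level, for the connexin that was higher at 72 h and for the desmosome gene with the highest level, since these genes took 3 different courses after ligation. Capitals mark matches to an AP-1 motif (TGANTCA) or a GATA motif (AGATAA), searched on both strands together with a T-box motif (GGTGTGA) and a CRE motif (TGACGTCA).
Gja1, chr10:56377050-56377299, plus strand: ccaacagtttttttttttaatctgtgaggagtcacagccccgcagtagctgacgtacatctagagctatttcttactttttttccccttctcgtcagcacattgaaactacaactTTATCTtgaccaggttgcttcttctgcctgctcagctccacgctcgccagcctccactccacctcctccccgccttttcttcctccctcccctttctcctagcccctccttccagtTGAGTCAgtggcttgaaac
Gja5, chr3:97032152-97032401, plus strand: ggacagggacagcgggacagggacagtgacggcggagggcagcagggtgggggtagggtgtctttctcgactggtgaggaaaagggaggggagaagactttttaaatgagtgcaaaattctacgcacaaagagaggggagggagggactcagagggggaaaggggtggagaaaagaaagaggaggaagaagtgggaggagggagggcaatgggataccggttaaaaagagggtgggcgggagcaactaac
Dsp, chr13:38151044-38151293, plus strand: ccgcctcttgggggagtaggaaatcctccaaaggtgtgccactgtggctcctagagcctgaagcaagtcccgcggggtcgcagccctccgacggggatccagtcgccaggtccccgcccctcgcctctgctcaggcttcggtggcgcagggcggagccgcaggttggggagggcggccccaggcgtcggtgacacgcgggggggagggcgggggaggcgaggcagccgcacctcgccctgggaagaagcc
The Gja1 window held 1 AP-1 match, 19 bases before the start, and 1 GATA match, 135 bases before it. The Gja5 and Dsp windows held none of the 4 motifs. Among 32851 windows of this length, 6.75% held the AP-1 motif, 9.99% the GATA motif, 3.33% the T-box motif and 1.55% the CRE motif. GC content was 50% in the Gja1 window, 56.4% in that of Gja5 and 72.4% in that of Dsp, against a median of 52.4% over all windows.

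In the sham mice the 10 genes kept one order of level in FPKM, and no neighbours in that order overlapped between mice. Gja1 was highest at 316 ± 34.0 FPKM (SD, n = 3), followed by Dsp at 114 ± 6.17 and Cdh2 at 66.3 ± 0.73. Pkp2 stood at 31.7 ± 1.2, Jup at 19.9 ± 1.24, Dsg2 at 15.1 ± 0.21 and Gjc1 at 13.9 ± 0.34. The 3 lowest were Dsc2 at 8.75 ± 1.1, Gja5 at 7.11 ± 0.26 and Ctnna3 at 4.22 ± 0.07. Gja1, Dsp, Cdh2, Pkp2 and Jup held the first 5 ranks by mean at every later time as well, and Ctnna3 the last. The ranges of Jup and Dsg2 overlapped at 10 min and 1 h. Ctnna3 overlapped with the gene next above it at 1 h (Gja5) and at 6 h (Dsc2). Below Jup the order changed. Dsg2 went from the sixth rank in sham to the eighth at 72 h, and Gja5 from the ninth to the seventh. At 24 h and at 72 h the ranges of Dsp and Cdh2 overlapped, so their order within those groups does not exceed the spread between mice. At 72 h the ranges also overlapped between Jup and Gjc1, Gjc1 and Gja5, and Dsg2 and Dsc2.

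**Figure D1:**
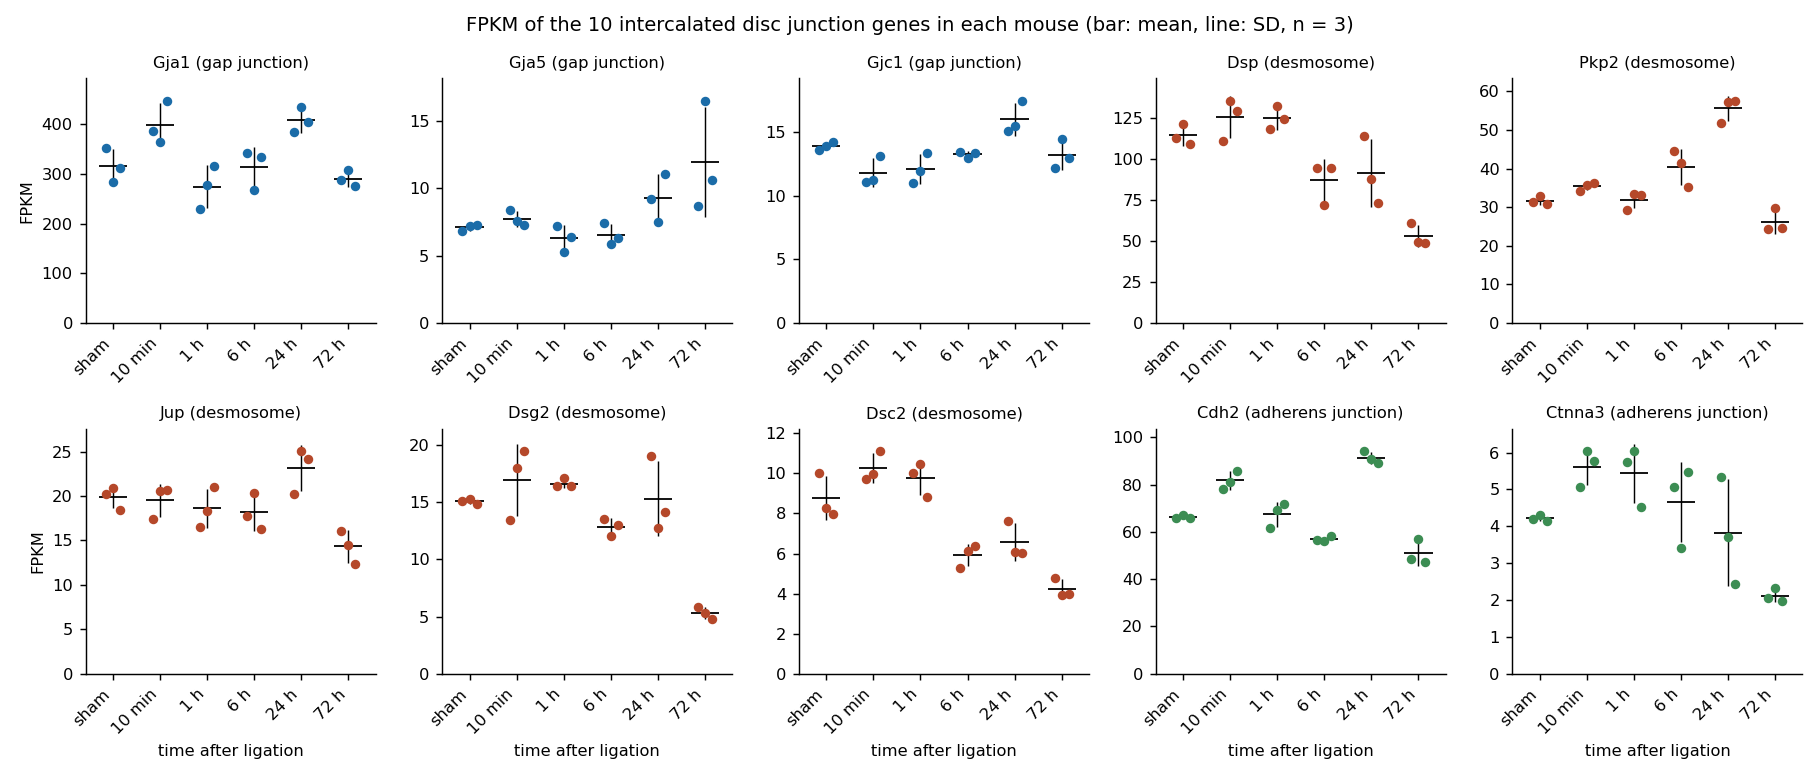
FPKM (linear axis from 0) of each of the 10 junction genes in the 3 mice of sham and of each time after ligation. Points are mice, horizontal bars group means and vertical lines the SD. Dsg2 sits between 4.78 and 5.80 FPKM at 72 h, below all 15 other mice, while Pkp2 and Cdh2 have their highest values at 24 h.

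Compared with the sham mice, none of the junction genes was called in the first hour, 3 were lower and 1 higher after 6 h, 3 were higher after 24 h, and 7 were lower and 1 higher after 72 h. At 10 min, 0 of 10 genes were called, beside 0.346% of the 13297 genes tested, and at 1 h 0 of 10, beside 0.722%. At an unadjusted p under 0.05, 5 of the 10 would pass at 10 min (4 higher and 1 lower) and 3 at 1 h, beside 14.7% and 12.6% of all genes. Of the genes tested, 0.0978% were lower and 0.248% higher at 10 min, and 0.0526% and 0.669% at 1 h. At 6 h, when 28.3% of all genes were called, 3 of 10 were lower, beside 16.8% of all genes, and 1 higher, beside 11.6%. The 24 h mice gave 0 of 10 lower, beside 11.4%, and 3 higher, beside 26.2%, with 37.6% of all genes called. Of the 10 estimates at 24 h, 7 lay above 0 and 3 below (Dsp, Dsc2 and Ctnna3), and median-of-ratios scaling or quantile normalization gave 1 gene lower (Dsc2) and 2 higher. Over all genes the first of these gave 2317 lower and 2535 higher, and the second 2736 and 2118. At 72 h, 7 of 10 were lower, beside 24.2% of all genes, and 1 higher, beside 53.1%. At that time 77.3% of all genes were called in either direction, so 8 called junction genes of 10 is a share near that background. Their median log2 fold change was 0.15 after 10 min, 0.02 after 1 h, -0.12 after 6 h, 0.20 after 24 h and -0.41 after 72 h. Over all genes tested the median was 0.02, -0.02, -0.08, 0.13 and 0.29 at those times. The comparisons with sham share the same 3 sham mice and are not independent of each other.

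Junction genes were also counted by the mice alone, with all 3 mice of a time above or below all 3 sham mice. By this count more of them stood apart from sham than were called at every time before 72 h, where the counts were the same. The shares of all genes were larger by this count too. After 10 min, 4 of 10 lay above, beside 12.2% of the 13333 genes that passed the filter, and 1 below, beside 8.13%. After 1 h 2 lay above, beside 7.4%, and 1 below, beside 10.9%. The 6 h mice lay above sham in 1 gene, beside 18.6%, and below in 5, beside 30.1%. For 24 h these counts were 5, beside 39.3%, and 1, beside 18.9%. By 72 h only 1 lay above, beside 55.1%, and 7 below, beside 25.4%.

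**Figure D2:**
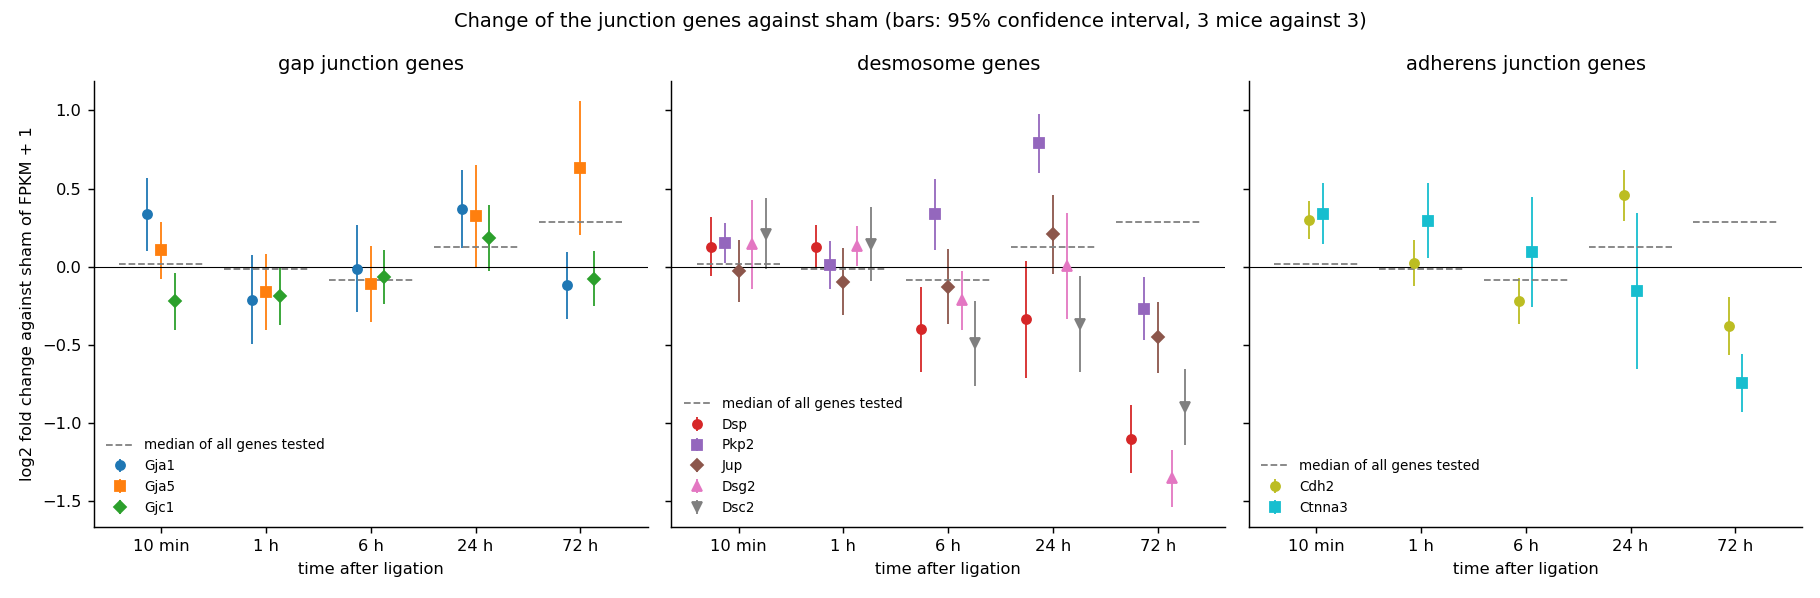
Log2 fold change of FPKM + 1 against sham (vertical axis) at each time after ligation, in 3 panels by kind of junction. Points are estimates from 3 mice against 3, bars their 95% confidence intervals, and dashed lines the median of all genes tested. At 72 h the 5 desmosome genes and both adherens junction genes lie below 0, from -0.27 for Pkp2 to -1.35 for Dsg2, and Gja5 lies at 0.63.

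The direction at 72 h depends on what each mouse is scaled to. Median-of-ratios scaling moved the median of all genes from 0.29 to 0.04, and gave 9 junction genes lower and 0 higher. Quantile normalization moved it to -0.12 and gave 8 lower and 0 higher. Over all genes, the calls split into 3226 lower and 7081 higher as deposited, 4752 and 5243 under median-of-ratios scaling and 5794 and 4278 under quantile normalization. When each mouse was scaled to the geometric mean of the 10 cardiomyocyte markers, the median of all genes became 1.49, the split 209 lower and 12164 higher, and the junction genes 0 lower and 9 higher. Under these 4 scalings and under scaling to one FPKM sum, 9 junction genes lay below the median of all genes at 72 h and Gja5 above it. All but quantile normalization differ by a single factor per mouse, which moves a gene and that median together, apart from the 1 added to FPKM. Their agreement was therefore fixed in advance, and only quantile normalization could have given another picture. On the log2 scale Dsg2 lay from -1.71 to -1.58 relative to the median of all genes over these settings, and Gja5 from 0.31 to 0.44.

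Among the gap junction genes, only Gja5 was called at 72 h on the deposited values, and only Gja1 at 24 h. Gja1 encodes Cx43, the main connexin of working ventricular muscle. Its FPKM was 352, 284 and 312 in the 3 sham mice, 385, 363 and 447 after 10 min, 229, 277 and 315 after 1 h, 341, 268 and 333 after 6 h, 383, 435 and 404 after 24 h, and 287, 308 and 276 after 72 h. The 10 min and 24 h mice all lay above the sham mice, and the ranges at 1 h, 6 h and 72 h overlapped with sham. Gja1 was higher at 24 h with a log2 fold change of 0.37 ± 0.11 (SE, limma, adjusted p = 0.0333), a call that was lost without any 1 of the sham mice (adjusted p = 0.0575 to 0.129) or without the second 24 h mouse (adjusted p = 0.0797). It was also lost under median-of-ratios scaling (0.22, limma, adjusted p = 0.137), quantile normalization (0.26, adjusted p = 0.0820), with the replicate number as a block (adjusted p = 0.0742) and with no filter (adjusted p = 0.0502). At 10 min its change was of like size, 0.33 ± 0.10, with a limma adjusted p of 0.205. At 72 h the difference from sham was -0.12 with a 95% interval of -0.33 to 0.10 on the deposited scale (limma, adjusted p = 0.278). Under median-of-ratios scaling it was -0.43 and was called (adjusted p = 0.0036), and under quantile normalization it was -0.20 (adjusted p = 0.0858). Between 24 h and 72 h, Gja1 fell by 0.49 on the log2 scale (SE 0.11, limma, adjusted p = 0.00859). These are values of whole tissue, and the part of each cell type in them was not tested.

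Gja5 encodes Cx40, which the atria, the fast conduction system and arterial endothelium are known to express. Its FPKM was 6.81, 7.23 and 7.29 in sham, 8.42, 7.55 and 7.25 at 10 min, and 7.22, 5.27 and 6.39 at 1 h. It was 7.43, 5.89 and 6.30 after 6 h, 9.18, 7.53 and 11.1 after 24 h, and 8.71, 16.5 and 10.6 after 72 h. All 3 mice at 24 h and at 72 h lay above all 3 sham mice, with the second 72 h mouse far above the other two. Gja5 rose by 0.63 ± 0.19 at 72 h on the log2 scale (SE, limma, adjusted p = 0.0132), to 168% of its sham mean. Without the second 72 h mouse the change was 0.39 (limma, adjusted p = 0.00755), and over leaving out each of the 6 mice it lay between 0.39 and 0.82. The call was lost under median-of-ratios scaling (0.35, limma, adjusted p = 0.103) and quantile normalization (0.23, adjusted p = 0.310). The atrial mouse at 6 h had 7.43 FPKM of Gja5, just above the sham range. Gja5's change at 24 h was 0.33 with a limma adjusted p of 0.0989, and 0.45 with an adjusted p of 0.0357 without the second 24 h mouse.

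At 72 h the marker lists of the cells that are known to carry Cx40 moved in different directions. The summed FPKM of 6 arterial endothelial markers was 87.9 to 90.1 in sham and 62.7 to 82.3 at 72 h, with 2 of 6 called lower (Dll4 and Sox17), beside 24.2% of all genes, and 0 higher. Of 6 conduction system markers, 5 were lower at 72 h, beside the same 24.2%, and 0 higher, among them Hcn4, the pacemaker channel, which fell by 1.15 on the log2 scale. Of 5 atrial markers 4 were tested at 72 h, since Bmp10 was at 0 FPKM in every mouse of both groups. Of these 4, 2 were higher, beside 53.1% of all genes, and 0 lower. The summed FPKM of the 5 went from between 207 and 486 in sham to between 1617 and 2023. Nearly all of that sum was Nppa, which ventricular muscle is known to switch on under load or injury and which rose by 2.46 on the log2 scale. Myl4, an atrial light chain, was the other one called, at 1.57, 1.23 and 2.07 FPKM in sham and 2.29, 2.52 and 2.22 at 72 h. The other 3 markers, Myl7, Sln and Bmp10, were at 0.49 FPKM or below in all 3 of the 72 h mice. The epicardial list had 4 of 6 genes higher at 72 h, near the 53.1% of all genes, with a summed FPKM of 79.3, 26.5 and 31.3 in the 3 mice against 7.2 to 17.5 in sham. Gja5 was at 8.71, 16.5 and 10.6 FPKM in the same mice. The part of these lists in the Gja5 result was not tested.

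Gjc1 encodes Cx45, a connexin of the embryonic heart and of the conduction system. On the deposited values it was called at no time against sham. Its sham values of 13.6, 13.9 and 14.2 FPKM stood beside 12.2, 14.4 and 12.9 at 72 h, and the largest estimate was -0.22 at 10 min (limma, adjusted p = 0.267). At 72 h Gjc1 was called lower under median-of-ratios scaling (-0.36, limma, adjusted p = 0.00125) and quantile normalization (-0.47, adjusted p = 0.000479), and higher on the scale of the cardiomyocyte markers given further on. All mice at 10 min, 1 h and 6 h lay below all sham mice, with highest values of 13.14, 13.37 and 13.45 FPKM. The changes at 1 h and 6 h were -0.19 and -0.06 (limma, adjusted p = 0.383 and 0.535). At 24 h the 3 mice, at 15.1, 15.5 and 17.5 FPKM, all lay above the sham mice in Gjc1, with a log2 fold change of 0.19 (limma, adjusted p = 0.134). Of the FPKM of the 3 connexins together, Gja1 made up 93.7% ± 0.74 in sham and 92.1% ± 1.2 at 72 h (SD, n = 3). The share of Gja5 was 2.13% ± 0.27 in sham and 3.75% ± 1.04 at 72 h, where its lowest mouse, at 2.83%, lay above the highest sham mouse at 2.37%.

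The desmosome genes did not move as one set. Pkp2 rose after 6 h and 24 h while Dsp and Dsc2 fell after 6 h, and all 5 genes were lower after 72 h on the deposited values. Pkp2 encodes plakophilin-2, an armadillo protein of the desmosome plaque that is also known to hold Cx43 and the sodium channel complex at the disc. Its FPKM was 31.4, 33.0 and 30.7 in sham, 34.2, 35.8 and 36.2 after 10 min, 29.4, 33.5 and 33.0 after 1 h, 44.4, 41.5 and 35.4 after 6 h, 51.9, 57.4 and 57.6 after 24 h, and 24.4, 29.9 and 24.6 after 72 h. Every mouse at 10 min, 6 h and 24 h lay above the sham range, and every mouse at 72 h below it. The change was 0.34 ± 0.10 at 6 h (SE, limma, adjusted p = 0.0402) and 0.79 ± 0.08 at 24 h (adjusted p = 0.00235), the latter 175% of the sham mean. At 72 h it was -0.27 ± 0.09 (limma, adjusted p = 0.0208), and this call was lost without the second sham mouse or without the first or the third 72 h mouse, with adjusted p from 0.0650 to 0.0745, and with each mouse rescaled to one FPKM sum (-0.19, adjusted p = 0.0950). From 24 h to 72 h Pkp2 fell by 1.06 on the log2 scale (SE 0.11, limma, adjusted p = 0.000435).

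Dsp encodes desmoplakin, which binds desmin filaments to the plaque. Its FPKM was 113, 121 and 109 in sham, 111, 135 and 129 after 10 min, 118, 132 and 125 after 1 h, 94.3, 71.9 and 94.7 after 6 h, 114, 87.6 and 73.3 after 24 h, and 60.8, 49.1 and 49.0 after 72 h. The 6 h and 72 h mice all lay below the sham mice, whereas at 24 h the first mouse was within the sham range. Dsp fell by 0.40 on the log2 scale at 6 h (SE 0.12, limma, adjusted p = 0.0408) and by 1.1 at 72 h (SE 0.09, adjusted p = 9.23e-06), to 46.3% of its sham mean. At 24 h its change of -0.34 was not called (limma, adjusted p = 0.128), and without the first 24 h mouse it was -0.50 (adjusted p = 0.0138).

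Dsg2 and Dsc2 encode the desmosomal cadherins, which span the gap between cells. Dsg2 was at 15.1, 15.3 and 14.8 FPKM in sham, 13.4, 17.9 and 19.4 after 10 min, 16.4, 17.1 and 16.4 after 1 h, 13.6, 12 and 13 after 6 h, 19.0, 12.8 and 14.1 after 24 h, and 5.80, 5.34 and 4.78 after 72 h. Its fall at 72 h, of 1.35 on the log2 scale (SE 0.08, limma, adjusted p = 9.73e-07), was the largest of the 10 genes and left 35.2% of the sham mean. At 24 h the change was 0.00 with a 95% interval of -0.34 to 0.34, so the fall lay between 24 h and 72 h (-1.35 ± 0.16 between these groups, limma, adjusted p = 0.000605). Dsc2 was at 10.0, 8.25 and 7.98 FPKM in sham, 9.70, 9.98 and 11.1 after 10 min, 10.0, 10.5 and 8.83 after 1 h, 5.29, 6.13 and 6.37 after 6 h, 7.65, 6.06 and 6.01 after 24 h, and 4.78, 3.95 and 3.96 after 72 h. All mice from 6 h on lay below all sham mice. The Dsc2 change was -0.49 ± 0.12 after 6 h (SE, limma, adjusted p = 0.0213), -0.37 ± 0.13 after 24 h (adjusted p = 0.0625, and 0.0272 without the first 24 h mouse) and -0.90 ± 0.11 after 72 h (adjusted p = 6.45e-05). Dsg2 was at 1.74 ± 0.20 times the FPKM of Dsc2 in sham, 2.31 ± 0.19 times at 24 h and 1.26 ± 0.08 times at 72 h (SD, n = 3), and these 3 ranges did not overlap.

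Jup encodes plakoglobin, which is shared by desmosomes and adherens junctions. It was at 20.2, 20.9 and 18.5 FPKM in sham, 20.3, 25.0 and 24.2 at 24 h, and 16.1, 14.5 and 12.4 at 72 h, and its values at the 3 earlier times lay between 16.3 and 21.0. Jup fell by 0.45 on the log2 scale at 72 h (SE 0.10, limma, adjusted p = 0.00271), and its 72 h mice all lay below the sham mice. Its 24 h change of 0.21 was not called (limma, adjusted p = 0.157), and was 0.30 without the first 24 h mouse (adjusted p = 0.0386).

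The desmosome mRNA pool thus had another make-up from 6 h on. Dsp held 60.2% ± 0.72 of the summed FPKM of the 5 genes in sham, 52.7% ± 5.0 after 6 h, 47.3% ± 5.93 after 24 h and 51.3% ± 3.32 after 72 h (SD, n = 3). The Pkp2 share was 16.7% ± 0.23 in sham, 24.7% ± 3.05 after 6 h, 29.2% ± 4.37 after 24 h and 25.6% ± 3.64 after 72 h. There were 3.60 ± 0.06 Dsp FPKM per Pkp2 FPKM in sham, with 3.53 after 10 min and 3.91 after 1 h, and 2.18 ± 0.48, 1.67 ± 0.48 and 2.04 ± 0.43 after 6 h, 24 h and 72 h. The 9 mice of the 3 later times had ratios from 1.27 to 2.68, below the 9 mice of the other groups, which had 3.24 to 4.02. These ratios are taken within each mouse, so a scaling that multiplies all values of a mouse by one factor leaves them as they are, which quantile normalization does not. Without the first 6 h mouse the 6 h ratio was 2.2, the Dsp share 52.2% and the Pkp2 share 24.3%. The sum of the 5 genes was 190 ± 8.76 FPKM in sham, 164 ± 11.8 after 6 h, 192 ± 19.1 after 24 h and 103 ± 8.58 after 72 h. On the deposited values the total after 24 h was thus near that of sham, with a different split between its members. Unlike the ratios, these sums depend on how each mouse is scaled.

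**Figure D3:**
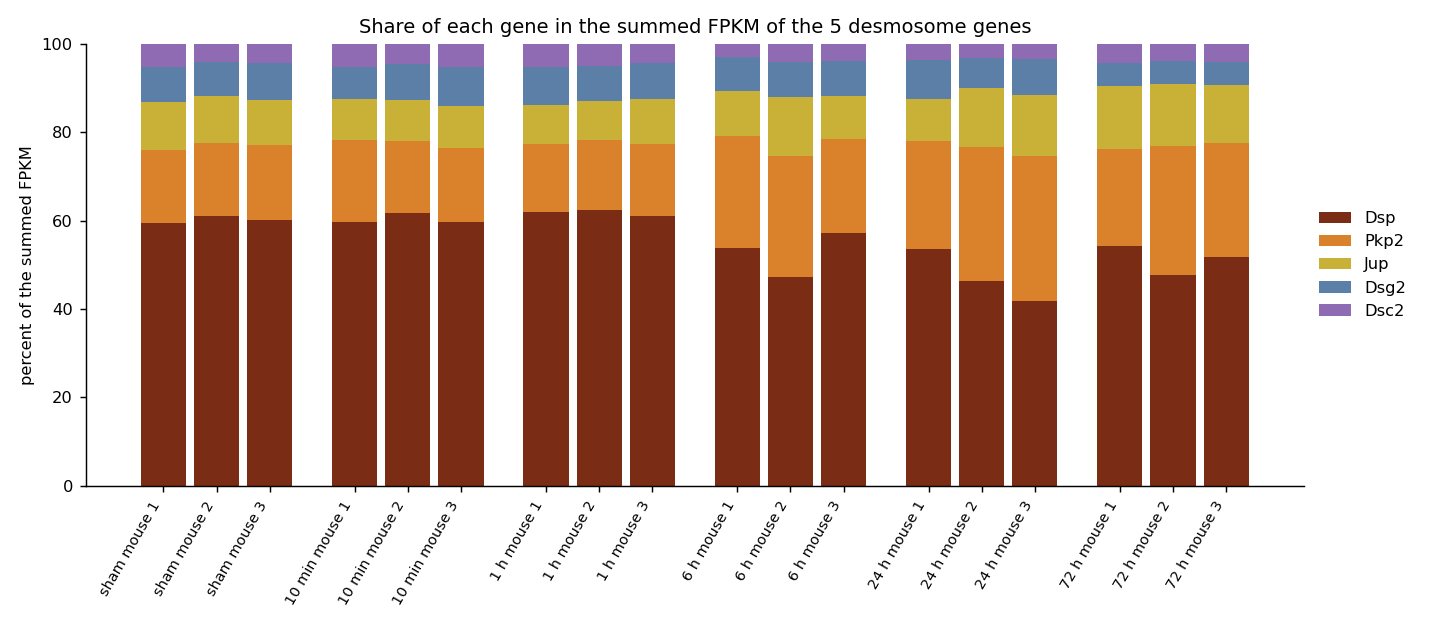
Share of Dsp, Pkp2, Jup, Dsg2 and Dsc2 in their summed FPKM (vertical axis, percent, stacked from 0 to 100) for each of the 18 mice, ordered by group. The Dsp share lies between 59.5% and 61.0% in the 3 sham mice and between 41.8% and 53.6% in the 3 mice at 24 h, where the Pkp2 share is 24.4% to 32.9%.

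At the adherens junction, Cdh2 rose after 24 h and was lower after 6 h and after 72 h, and Ctnna3 was called after 72 h only. Cdh2 encodes N-cadherin, the classical cadherin of heart muscle. Its FPKM was 65.9, 67.1 and 65.8 in sham, 78.2, 81.3 and 85.9 after 10 min, 61.6, 69.1 and 71.8 after 1 h, 56.5, 56.0 and 58.1 after 6 h, 94.1, 90.8 and 89.3 after 24 h, and 48.4, 57.1 and 47.3 after 72 h. Apart from 1 h, every group lay wholly above or below the sham mice. The change was 0.30 ± 0.05 after 10 min (SE, limma, adjusted p = 0.0721), the smallest p of the 10 genes at that time, -0.22 ± 0.06 after 6 h (adjusted p = 0.0389), 0.46 ± 0.07 after 24 h (adjusted p = 0.00619) and -0.38 ± 0.08 after 72 h (adjusted p = 0.00232). From 6 h to 24 h Cdh2 rose by 0.67 ± 0.10 (limma, adjusted p = 0.0141), and from 24 h to 72 h it fell by 0.84 (SE 0.11, adjusted p = 0.00091). As for Gja1, the part of each cell type in the Cdh2 values was not tested.

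Ctnna3 encodes αT-catenin, which links the cadherin complex to actin and binds plakophilin-2. It was at 4.20, 4.29 and 4.15 FPKM in sham, 5.05, 6.03 and 5.77 after 10 min, 5.75, 6.03 and 4.51 after 1 h, 5.07, 3.42 and 5.46 after 6 h, 5.34, 3.72 and 2.43 after 24 h, and 2.07, 2.33 and 1.97 after 72 h. The 10 min and 1 h mice all lay above sham and the 72 h mice all below, whereas 6 h and 24 h were spread on both sides of it. Ctnna3 fell by 0.74 on the log2 scale at 72 h (SE 0.08, limma, adjusted p = 3.82e-05), to 50.3% of the sham mean. Its changes of 0.34 at 10 min and 0.30 at 1 h had limma adjusted p of 0.143 and 0.329. Cdh2 was at 15.7 ± 0.12 times the FPKM of Ctnna3 in sham and at 24.0 ± 0.58 times at 72 h, with a range of 17.6 to 36.7 at 24 h (SD, n = 3).

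Dropping single mice ended the calls of 4 junction genes at 6 h, of 1 at 24 h (Gja1) and of 1 at 72 h (Pkp2), and at 24 h it added calls for 4 others (Dsp, Jup, Dsc2 and Gja5). Each of the 4 calls at 6 h, for Dsp, Pkp2, Dsc2 and Cdh2, was lost without any 1 of the 3 sham mice, with limma adjusted p from 0.0511 to 0.136. Without the first 6 h mouse, the one with atrial genes, Dsp and Dsc2 were still called, while Pkp2 was at 0.27 (limma, adjusted p = 0.0847) and Cdh2 at -0.21 (adjusted p = 0.0614). Without the second 6 h mouse, Pkp2 and Cdh2 were likewise not called (limma, adjusted p = 0.0780 and 0.0561). Median-of-ratios scaling also ended the 6 h calls of Dsp (-0.30, limma, adjusted p = 0.0839) and Cdh2 (-0.12, adjusted p = 0.204), and no filter those of Dsp and Pkp2 (adjusted p = 0.0646 and 0.0550).

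Against the 1 h mice, Dsp, Dsg2 and Dsc2 were lower at 6 h, 3 of 10 beside 11.2% of all genes, and 0 higher, beside 9.32%, while 20.5% of all genes were called in either direction. In 4 genes all 6 h mice lay below all 1 h mice, beside 25.5% of all genes, and in 1 above, beside 17.8%. The log2 fold changes were -0.53 for Dsp, -0.35 for Dsg2 and -0.64 for Dsc2. Dsp lost this call without any 1 of the 1 h mice (limma, adjusted p = 0.0586 to 0.0926), Dsg2 without any 1 of them or the second 6 h mouse (adjusted p = 0.0615 to 0.122) and Dsc2 without the second 1 h mouse (adjusted p = 0.0562). Between 6 h and 24 h, Cdh2 and Pkp2 were higher, 2 of 10 beside 12.5%, and 0 lower, beside 1.94%, with 14.4% of all genes called. All 24 h mice lay above all 6 h mice in 5 genes, beside 36.2%, and below in 0, beside 7%. Pkp2 lost its call without any 1 of the 6 mice (limma, adjusted p = 0.0549 to 0.142), and Cdh2 without any 1 of the 6 h mice or the second 24 h mouse (adjusted p = 0.0501 to 0.0722). Between 24 h and 72 h, Gja1, Dsp, Pkp2, Jup, Dsg2, Dsc2 and Cdh2 were lower, 7 of 10 beside 13.5% of all genes, and 0 higher, beside 29.7%, with 43.2% of all genes called. In 9 of 10 all 72 h mice lay below all 24 h mice, beside 19.1%, and in 0 above, beside 37.3%. Of these, Dsc2 was not called without the second or the third 72 h mouse (limma, adjusted p = 0.0556 and 0.0628), nor Gja1 without the third (adjusted p = 0.0507). Without the third 24 h mouse Ctnna3 was called too, with a fall by 0.81 on the log2 scale (limma, adjusted p = 0.0028).

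Scaling to the cardiomyocyte markers divides all values of a mouse by a single factor. Apart from the 1 added to FPKM, this keeps the order of the fold changes by arithmetic. At 72 h only Gja1 and Gjc1 changed places, and the zero moved. The markers, which encode troponins, myosin, actin, the calcium pump and other sarcomere and calcium handling proteins, had a median log2 fold change of -1.40 at 72 h. Relative to them, Gja5 was 1.93 ± 0.23 higher (SE, limma), Gja1 1.29 ± 0.12, Gjc1 1.26 ± 0.15, Pkp2 1.11 ± 0.15, Cdh2 1.02 ± 0.14 and Jup 0.89 ± 0.13. Ctnna3, Dsc2 and Dsp were each 0.30 to 0.33 higher, called with limma adjusted p of 0.0460, 0.0370 and 0.0186. Dsg2 was at -0.09 with a 95% interval of -0.37 to 0.20 (limma, adjusted p = 0.536), so a difference from the markers beyond these bounds was outside the interval. At 24 h, Gja1, Gja5, Gjc1, Pkp2, Jup, Dsg2 and Cdh2 were higher relative to the markers, as were 7465 of 13327 genes tested. The middle value over those 13327 genes was 0.56 on this scale, so most of the table shared this direction. Dsp, Dsc2 and Ctnna3 were at 0.22, 0.13 and 0.28 without being called. At 72 h, 12164 of 13329 genes tested were higher on this scale, with a median of 1.49. Of the junction genes, only Gja5 lay above that median. The summed FPKM of the 10 junction genes was 0.98% ± 0.04 of the cardiomyocyte marker sum in sham, 1.65% ± 0.20 at 24 h and 2.0% ± 0.28 at 72 h (SD, n = 3). Most of the junction sum was Gja1, at a mean of 290 of 472 FPKM at 72 h.

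**Figure D4:**
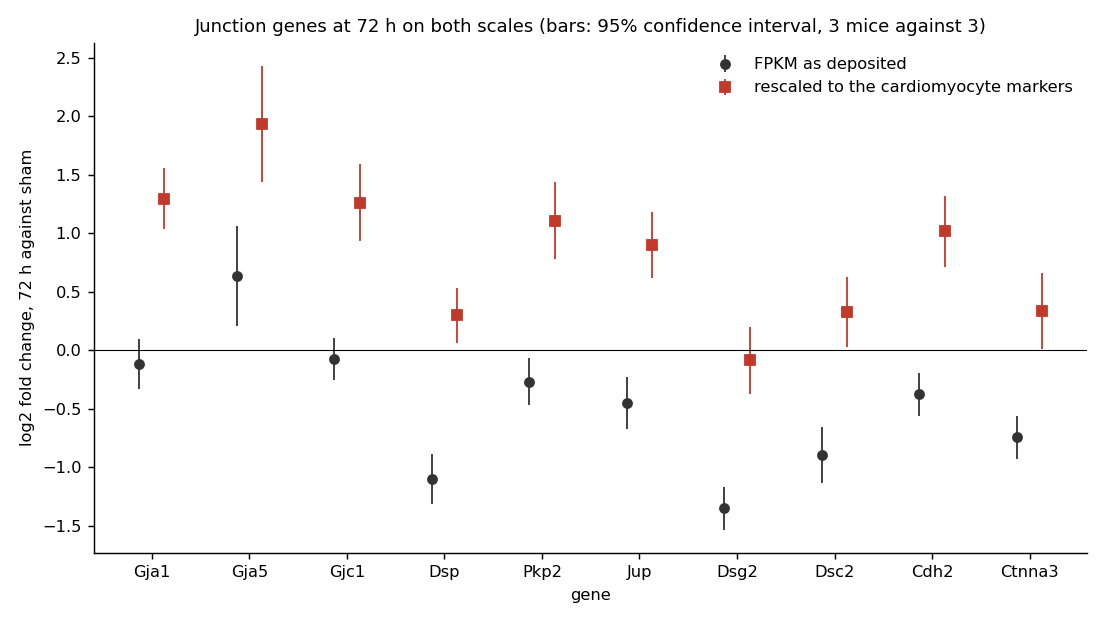
Log2 fold change at 72 h against sham of each junction gene, on FPKM as deposited (circles) and with each mouse rescaled to 10 cardiomyocyte markers (squares). Bars are 95% confidence intervals from 3 mice against 3. Circles run from -1.35 for Dsg2 to 0.63 for Gja5, and squares from -0.09 to 1.93 for the same 2 genes.

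Partner genes of the disc moved both ways. Of 13 genes for the adherens junction plaque and its actin link, 3 were lower and 5 higher after 6 h, 2 and 5 after 24 h, and 7 and 5 after 72 h. Over all genes these shares were 16.8% and 11.6%, 11.4% and 26.2%, and 24.2% and 53.1%, so the 5 of 13 higher after 72 h is a smaller share than that of all genes. Without the first 6 h mouse, 2 were lower and 5 higher after 6 h, beside 12.6% and 9.72%. Xirp2 and Xirp1, actin-binding Xin repeat proteins of the disc, and Enah, an actin regulator, led the rises. Xirp2 rose by 1.13 ± 0.28 after 6 h, by 2.06 ± 0.10 after 24 h and by 0.92 ± 0.11 after 72 h on the log2 scale (SE), from 74.3 ± 3.79 FPKM in sham to 315 ± 35.3 after 24 h (SD, n = 3). Xirp1 rose earliest, by 0.59 ± 0.07 at 1 h, where it was the 1 plaque gene of 13 to be called, and by 2.04 ± 0.38 at 6 h. Its 6 h values of 89.7, 45.9 and 26.1 FPKM, in mice 1 to 3, were highest in the mouse with atrial genes. Without that mouse Xirp1 was at 1.59 and Xirp2 at 0.83, both still called (limma, adjusted p = 0.00422 and 0.0339). Enah rose by 1.03 at 6 h and 1.47 at 24 h. At 72 h the largest falls on the list were Lmo7 at -1.17 ± 0.07 and Nrap at -0.93 ± 0.07, an actin-anchoring protein of the disc that had been higher at 24 h (0.79). Ctnna1, the catenin that shares its role with Ctnna3, went from 173, 161 and 165 FPKM in sham to 119, 119 and 112 at 72 h.

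Of 9 other proteins of the disc, 1 was lower and 2 higher after 6 h, 1 and 3 after 24 h, and 7 and 1 after 72 h, with a median log2 fold change of -0.71 after 72 h. Beside the all-gene shares just given, the counts after 6 h and 24 h are near the background, and 7 of 9 lower after 72 h stands beside 24.2%. Without the first 6 h mouse, 0 were lower and 1 higher after 6 h. Des, the desmin filament that desmosomes anchor, rose by 0.52 ± 0.16 after 6 h and by 0.94 ± 0.13 after 24 h, and was at -0.10 after 72 h (limma, adjusted p = 0.293). Its 6 h call was lost without the mouse with atrial genes (0.48, limma, adjusted p = 0.114). Its summit at 24 h, of 1166, 1534 and 1162 FPKM in the 3 mice against 629 to 693 in sham, was at the same time as that of Pkp2. Tmem43, a membrane protein whose variants cause arrhythmogenic cardiomyopathy, rose at 24 h by 0.84 ± 0.12 and at 72 h by 1.11 ± 0.09. Fgf13, a regulator of the cardiac sodium channel, fell by 1.54 ± 0.10 at 72 h, from 14.9 ± 0.24 to 4.49 ± 0.73 FPKM.

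Of 20 other connexins and pannexins, 7 passed the filter of 1 FPKM in at least 1 mouse, and at 72 h 1 was lower, beside 24.2% of all genes, and 4 higher, near the background of 53.1%. Panx1, a membrane channel that releases ATP, rose by 2.98 ± 0.12, from 0.59, 0.73 and 1.1 FPKM in sham to 12.4, 13.1 and 14.2 at 72 h, and by 1.05 ± 0.15 at 24 h. At 72 h it stood near the level of Gjc1. Gja3, a connexin best known from the lens, was the one that was lower, at 16.5 ± 0.71 FPKM in sham, 9.52 ± 1.63 at 6 h and 9.29 ± 0.46 at 72 h, and so lay above Gja5 in sham. At 24 h Gja3 was at 16.3, 12.7 and 8.16 FPKM in the 3 mice and was not called. Its change was -0.74 ± 0.12 at 6 h (-0.63 without the first 6 h mouse) and -0.76 at 72 h. Of 12 desmosome genes of epithelia, only Ppl and Perp passed the filter, and at 72 h they fell by 1.29 and 0.73 on the log2 scale. Of 8 other cadherins 5 were tested at 72 h. Of these, 1 was lower (Cdh13, -0.68 ± 0.08), beside 24.2% of all genes, and 3 were higher, near the 53.1% of all genes. Cdh11, the cadherin of mesenchymal cells, rose from 1.1 ± 0.25 to 6.75 ± 0.05 FPKM at 72 h, and Cdh3, P-cadherin, from 0.035 ± 0.006 to 3.69 ± 0.48. The part of the fibroblast, leukocyte and epicardial lists in the rises of Panx1, Cdh3 and Cdh11 at 72 h was not tested.

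Of 7 genes that act on the transport or turnover of Cx43, 0 were lower and 6 higher at 72 h, beside 53.1% of all genes higher. The kinase gene Src, whose product phosphorylates Cx43, rose by 1.2 ± 0.09, and Mapre1, which encodes the microtubule end protein EB1 that guides connexin delivery to the disc, by 0.97 ± 0.08. Csnk1d, a casein kinase, was higher at 6 h (0.54), 24 h (0.49) and 72 h (0.52). Nedd4, a ubiquitin ligase of Cx43, was lower at 6 h (-0.40 ± 0.10) and higher at 72 h (0.43). Without the first 6 h mouse, Csnk1d was still called at 6 h (0.41) and Nedd4 was not (-0.39, limma, adjusted p = 0.0514).

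Over the 18 mice, junction genes fell into like and unlike courses. Correlations of log2(FPKM + 1) are given as a description, since the mice fall into 6 groups and share each group's time. Dsp was most like Dsc2 (Pearson's r = 0.93), Dsg2 (r = 0.92) and Ctnna3 (r = 0.91) among the members, and least like Gja5 (r = -0.68), while with Pkp2 it had r = 0.17. Among 5884 other genes with a mean of at least 10 FPKM, those most like Dsp were Mylk3, Cacna1c and Fgf13 (r = 0.97 to 0.98). The same search gave Cryab, Cfl2 and Csrp3 for Pkp2 (r = 0.92 to 0.94), Insr, Nfe2l1 and Lrrc2 for Dsg2, Akap1, Agtr1a and Slc25a42 for Dsc2, and Ryr2, Sptb and Trim55 for Ctnna3. It gave Mtus2, Npepps and Noa1 for Cdh2, Wbp2, Mapk12 and Hspb2 for Jup, Appl1, Gtf2e2 and Smarcc1 for Gja5, and Ypel5, Psmc1 and Rsl1d1 for Gjc1. Gja1 had the weakest likeness of the 10, with Bcl7b at r = 0.76, Dysf at 0.74 and Cxcl12 at 0.73.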

How the data were processed

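The deposited table holds FPKM values per gene symbol for 18 mouse hearts. Per the labels and the study's methods, the authors used cutadapt 1.18 for trimming, HISAT2 2.1.0 for mapping to mm10 and StringTie 1.3.4d for the FPKM values. The annotation and how records of one symbol were joined are not given in the sources used here. The values of Dsp, Dsg2, Dsc2, Cdh2 and Ctnna3 carry more digits than single records do, as sums would. Whether reads were counted by strand is not stated.

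The 10 junction genes, the partner and marker lists and the tests were chosen with earlier results of these data known. Genes with at least 1 FPKM in at least 1 of 18 mice were tested (13333 of 24419 symbols, all 10 junction genes among them), less those with one value in all 6 mice of a comparison. log2(FPKM + 1) was fitted with limma 3.58.1 in R 4.3.3 (lmFit, eBayes with trend) on the 3 mice of each of 2 groups, over the whole table, with Benjamini-Hochberg adjustment. Fold changes on this scale understate the change of low genes. The authors used the aligned reads for their own test, which the table does not allow. The test was checked on simulated data with the spread of the sham mice and 200 changed genes. Far more genes were called from 6 h on, so that check does not cover the error of the test in those comparisons. Intervals are at 95%. Read counts were not used here, so no counting error is given. Relative depth, read from the lowest FPKM values, was 0.813 to 1.32 times that of the first sham mouse.

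The named genes were the 10 junction genes, up to 3 genes per list and time with the largest fold change among those called, and the 3 genes with a mean of at least 10 FPKM most like each junction gene. Ctnna1 and the values of listed genes at other times were added after their values were seen. Some genes of the lists are not reported here. Afdn was matched by its older symbol Mllt4. The alternatives took 4 scalings, 0.1 as pseudocount, a mean of at least 1 FPKM or nothing as filter, a common fit of the 18 mice, blocks by replicate number, an untrended variance and each mouse left out in turn. Leaving the first 6 h mouse out for the partner lists was added after seeing the data. Positions and overlaps are from GENCODE M21, promoters from RefSeq.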

Additional observations from a re-analysis of the deposited data

How the results depend on the processing

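The replicate numbers did not pair the mice: over 45 pairs of mice with the same number in different groups, the correlation of their deviations from the group means was -0.33 to 0.41 with a median of -0.02, and in 0 of 15 pairs of groups were all above 0.1. With the replicate number as a block, 0 junction genes were lower and 0 higher at 6 h, 1 was lower at 24 h, 1 was lower at 6 h against 1 h and 0 were higher at 24 h against 6 h, where 1 gene of the whole table was called. Of the 13321 to 13328 genes tested, that fit gave 1577 lower and 1262 higher at 6 h. It gave 1211 lower at 24 h and 821 lower at 6 h against 1 h. With all 18 mice in one fit, 1 junction gene was lower at 24 h, beside 2054 of 13333 genes. In that fit 1 was higher at 6 h against 1 h, beside 1521, and 5 were higher at 24 h against 6 h, beside 4848. With no filter, 0 were higher at 6 h, beside 1327 of 18112 genes, and 1 higher at 24 h against 6 h, beside 976 of 18249. With no variance trend 1 was lower at 6 h, beside 2237 of 13321, and 1 higher at 24 h against 6 h, beside 1722 of 13328. Median-of-ratios scaling gave 1 lower at 6 h, beside 1513 of all genes, and 1 lower at 24 h, beside 2317. It gave 0 higher at 72 h, beside 5243, and 0 higher at 24 h against 6 h, beside 403. Quantile normalization gave 1 lower at 24 h, beside 2736 of all genes. It gave 0 higher at 72 h, beside 4278, and 1 higher at 24 h against 6 h, beside 371. Scaling to the cardiomyocyte markers gave 0 lower at 6 h, 7 higher at 24 h, 0 lower and 9 higher at 72 h, 1 lower and 1 higher at 6 h against 1 h, and 1 lower and 1 higher at 72 h against 24 h. Over all genes that scaling gave 1011 lower at 6 h, 7465 higher at 24 h, and 209 lower and 12164 higher at 72 h. It gave 640 lower and 1756 higher at 6 h against 1 h, and 100 and 9686 at 72 h against 24 h. Over leaving out each mouse, the number lower was 0 to 3 at 6 h, 0 to 2 at 24 h and 0 to 3 at 6 h against 1 h, and the number higher 0 to 1 at 6 h, at 6 h against 1 h and at 24 h against 6 h. Over all genes the number lower was then 852 to 2894, 366 to 1796 and 362 to 1974. The number higher was 763 to 1786 at 6 h, 458 to 1321 at 6 h against 1 h and 1 to 1745 at 24 h against 6 h. The cause of these moves was not tested.

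Median-of-ratios scaling turned the sign of Gja1 (0.092) and Gjc1 (0.031) at 6 h, Dsg2 at 24 h (-0.13), Jup at 6 h against 1 h (0.049), and Dsp (-0.18), Dsg2 (-0.015) and Dsc2 (-0.090) at 24 h against 6 h, none of them called on the deposited values. Quantile normalization turned Pkp2 at 1 h (-0.0081), Gjc1 (-0.0024) and Dsg2 (-0.18) at 24 h, and Dsp (-0.050), Dsg2 (-0.0013) and Dsc2 (-0.11) at 24 h against 6 h, likewise not called before. Scaling to the cardiomyocyte markers, which fall at 72 h themselves, turned at 72 h Gja1 (1.29), Gjc1 (1.26), Dsp (0.30), Pkp2 (1.11), Jup (0.89), Dsc2 (0.32), Cdh2 (1.02) and Ctnna3 (0.33). It also turned Gja1 (0.18), Gja5 (0.056), Gjc1 (0.11) and Jup (0.054) at 6 h, Dsp (0.22), Dsc2 (0.13) and Ctnna3 (0.28) at 24 h, Jup at 6 h against 1 h (0.14), Ctnna3 at 24 h against 6 h (0.033), and at 72 h against 24 h Gja1 (0.37), Gjc1 (0.55), Dsp (0.080), Jup (0.15), Dsc2 (0.20), Cdh2 (0.0080) and Ctnna3 (0.057). Leaving out 1 mouse turned the sign of 10 estimates that were not called: Jup at 10 min (-0.075 to 0.052), Pkp2 (-0.024 to 0.068) and Cdh2 (-0.023 to 0.087) at 1 h, Gja1 (-0.084 to 0.10) and Ctnna3 (-0.0091 to 0.26) at 6 h, Dsg2 (-0.15 to 0.12) and Ctnna3 (-0.37 to 0.069) at 24 h, Gja5 (-0.053 to 0.14) and Jup (-0.11 to 0.053) at 6 h against 1 h, and Dsp at 24 h against 6 h (-0.10 to 0.21).

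With 3 mice a group, a p that misses the threshold does not show that a gene did not change. Groups of 3 were too small for the check on outlying mice.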
